A study of Mus musculus with 2 samples.

Results

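Cwc22 (ENSMUSG00000027014) is 1 of the 27998 genes in the count matrices of this experiment, and its row was taken by gene symbol. The gene was chosen from its measured values, because its level differed between the 2 libraries, so its KO to WT ratio is given here as a description and without a test. Single cells were captured from fetal ovaries at E15.5 (embryonic day), from mice of a strain labelled for both libraries with the germ cell reporter Tg(Pou5f1-EGFP)2Mnn and the Nr3c1tm1.1Jda allele of the glucocorticoid receptor (GR) gene. The KO library came from 2 pooled female embryos with homozygous GR deletion, made with a cre driven by the β-actin promoter and therefore not restricted to a cell type. The WT library came from 4 pooled embryos labelled wildtype, which the study's methods give as GR+/+. In both, OCT4-GFP germ cells were sorted and mixed with somatic cells at 60% to 40%, so cell shares follow the mix. With 1 library per genotype, GR status cannot be told apart from which embryos were pooled, sorted and captured together. The inbred background of the embryos is not given in the sources used here.

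CWC22 is a spliceosomal protein with a MIF4G domain. It binds the RNA helicase EIF4A3 and brings it to the spliceosome, where EIF4A3, MAGOH and RBM8A are deposited on spliced mRNA as the exon junction complex, with CASC3 as a further core component. Spliced transcripts keep this complex until translation, and it takes part in mRNA export, localization and nonsense-mediated decay. In house mice, copies of Cwc22 lie in a copy-number-variable locus on chromosome 2 called R2d, whose copy number differs between strains and which is known for distorted transmission through females.

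In GRCm38 with the GENCODE annotation, Cwc22 lies on the minus strand of chromosome 2, chr2:77881159-77946375. It is a protein-coding gene of 65217 bases with 13 annotated transcripts, 7 of them protein coding, and up to 21 exons. About 6 Mb away, on the plus strand, 7 further protein-coding genes of 1 or 2 exons (Gm13691, Gm13693, Gm13694, Gm13695, Gm13696, Gm13697 and Gm13698) carry a 2493-base transcript that matches the Cwc22-201 transcript at 96.858% identity over 2514 aligned positions. The first of them in coordinate order, Gm13698, starts at chr2:83955693 and the last, Gm13691, ends at chr2:83993045. The copies are identical to each other except Gm13695, which differs at 1 base. The aligned part holds 39 mismatches and 40 gap positions. The stretch below is the 60-base ungapped coding window with the most mismatches. It is shown as an example of where a read could separate Cwc22 from a copy. Windows with gap positions, which could also separate them, were not compared. Capitals mark the 6 bases that differ.

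Cwc22-201, bases 638 to 697: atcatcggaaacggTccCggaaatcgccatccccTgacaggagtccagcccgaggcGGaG
Gm13691-201, bases 251 to 310: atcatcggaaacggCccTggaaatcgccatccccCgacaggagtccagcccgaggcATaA

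The match ends at base 2885 of the 3471 bases of Cwc22-201. This leaves 229 coding bases and all of the sequence after them, 586 bases in total, outside the match to the annotated transcripts of the copies. The genomic sequence after the annotated copies was not compared, so whether it holds a counterpart was not tested. Reads of a 3′ kit fall mostly near transcript ends, and the last 300 bases of Cwc22-201 and Cwc22-204 matched no other annotated transcript. The tails of other coding Cwc22 transcripts did match: 184 bases of Cwc22-205 matched Gm13727, and all 300 bases of the short Cwc22-206 and Cwc22-208 matched the copies. All 7 copies had 0 UMIs (unique molecular identifiers, which count captured transcripts) in the kept cells of both libraries. Levels are given as CPM, the UMIs of a gene per 1000000 UMIs of the same cells. A read that fits several genes equally is not counted. The 7 copies are nearly identical to each other, so almost any read from a copy would fit several of them. The 0 UMIs therefore set no upper limit on the level of the copies. Whether reads of additional copies in these embryos were counted as Cwc22 was not tested.

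The RefSeq window around the transcription start of Cwc22 (GRCm38.p6) held 2 copies of TGTTCT, the hexamer that glucocorticoid receptor contacts in each arm of its palindromic element. They are shown because the libraries differ in GR. The printed stretch runs from 120 bases before the start to 20 bases after it on the minus strand, chr2:77946337-77946476, with the hexamers in capitals; they begin at bases 2 and 15 of the transcript.

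Cwc22 start region: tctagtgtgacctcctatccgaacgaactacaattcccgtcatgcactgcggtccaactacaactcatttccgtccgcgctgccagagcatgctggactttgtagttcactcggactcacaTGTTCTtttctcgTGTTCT

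Of 32851 promoter windows of 300 bases, 18.97% held the hexamer on either strand and 2.54% held it at least 2 times. The palindrome AGAACANNNTGTTCT was absent from the Cwc22 window and present in 3 of the windows. A match of letters is a description and not evidence of binding.

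The KO library held 17829 barcodes and 186117981 UMIs, and the WT library 11430 barcodes and 168483330 UMIs. After filtering, 15502 KO and 9045 WT cells remained, with medians of 10195 and 15685 UMIs per cell, so WT cells were sampled more deeply. The libraries shared 75 cell barcodes, 27 of them among kept cells. Marker genes named 8 classes of cells, germ-like and, among somatic cells, theca-like (stroma), granulosa-like (supporting cells of the follicle), epithelia-like (ovarian surface), immune-like, endothelia-like, erythroid-like and perivascular-like, and in each class the summed level of its own markers was higher than in any other class. A cluster with germ and somatic genes together, 694 KO and 163 WT cells with medians of 17081 and 25095 UMIs, was kept apart from the classes. Nr3c1, the targeted gene, stood at 10.6 CPM in the KO library and 63.9 CPM in the WT library. Deletion of an exon need not remove 3′ reads, so the lower level matches the labels but does not measure the deletion.

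Cwc22 was detected in every class, and its level was lower in the KO library in 7 of 8 classes. Over all kept cells, 11136 Cwc22 UMIs in the KO library gave 64.3 CPM (95% Poisson interval 63.2 to 65.6), and 22289 in the WT library gave 147 CPM (145 to 149). That is 43.7% of the WT level for KO, a log2 ratio of -1.19 (-1.23 to -1.16). These intervals cover counting error between 2 libraries and not the spread between embryos.

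Germ-like cells, 10186 in KO and 6787 in WT, had Cwc22 at 67.6 CPM (66.2 to 69.1) in KO against 157 CPM (154 to 159) in WT, a log2 ratio of -1.21 (-1.25 to -1.17). Granulosa-like cells had 50.8 CPM (47.3 to 54.5) in KO against 107 CPM (101 to 113) in WT, a log2 ratio of -1.08 (-1.21 to -0.94). Theca-like cells had 63.0 CPM (58.2 to 68.0) in KO against 124 CPM (117 to 132) in WT, a log2 ratio of -0.98 (-1.12 to -0.84). Epithelia-like cells had 53.8 CPM (49.5 to 58.3) in KO against 99.6 CPM (91.7 to 108) in WT, a log2 ratio of -0.89 (-1.06 to -0.72). The KO and WT intervals did not overlap in any of these 4 classes.

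The rare classes rest on 11 to 74 Cwc22 UMIs per library. Endothelia-like cells had 53.1 CPM (41.7 to 66.7) in KO and 91.7 CPM (63.5 to 128) in WT, and erythroid-like cells 48.3 CPM (34.8 to 65.3) and 89.0 CPM (58.6 to 129). Immune-like cells, 50 KO and 29 WT cells, had 48.8 CPM (31.9 to 71.4) in KO and 64.9 CPM (42.4 to 95.1) in WT, a log2 ratio of -0.41 whose interval ran from -1.25 to 0.43. Perivascular-like cells were the exception in direction, with 72.2 CPM (49.7 to 101) in KO and 59.5 CPM (29.7 to 107) in WT. That rests on 33 and 11 UMIs, and the log2 ratio of 0.28 had an interval from -0.74 to 1.41. No KO to WT difference was detectable at this depth in the immune-like and perivascular-like cells.

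The order of the classes was alike but not the same in the libraries. Granulosa-like and epithelia-like cells had overlapping intervals in both and were not told apart. In the WT library germ-like cells stood highest, 1.26 times the theca-like level (log2 0.33, 0.25 to 0.42) and 1.46 times the granulosa-like level (log2 0.55, 0.46 to 0.64). In the KO library the germ-like to theca-like log2 ratio was 0.10 with an interval from -0.01 to 0.22, so these neighbours were not separated beyond counting error, while the germ-like to granulosa-like log2 ratio was 0.41 (0.31 to 0.52). The KO to WT ratio itself was lower in germ-like than in theca-like cells by a log2 difference of -0.23 (-0.38 to -0.09) and than in epithelia-like cells by -0.32 (-0.49 to -0.15). Against granulosa-like cells the difference of -0.14 had an interval from -0.27 to 0.00061.

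RNA of germ cells was present at a low level in theca-like, granulosa-like and epithelia-like cells. The 8 germ markers stood at a median of 2.66% to 7.24% of their germ-like level in these 3 main somatic classes of both libraries. At those shares, germ RNA would carry 2.36 to 11.3 CPM of Cwc22, beside measured levels of 50.8 to 124 CPM. The same median was 23.1% in KO and 2.08% in WT endothelia-like cells, and 14.9% and 2.03% in immune-like cells. In erythroid-like cells it was 52.2% in KO and 45.1% in WT, a share that would carry 35.3 of the 48.3 CPM and 70.6 of the 89.0 CPM of Cwc22. Without cells that held markers of another class, 5 KO and 2 WT erythroid-like cells remained, with 10.98 CPM and 0 UMIs of Cwc22.

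In 2 classes the cells of the libraries were spread unevenly over the clusters, though each cluster held cells of both. The KO granulosa-like cells were 68.9% in a cluster led by Gm14226, Fst and Calb1, and the WT cells were 56.6% in a cluster led by Ly6d, Calb1 and Fst. Of the germ-like clusters, 1 held 28.0% of WT and 5.78% of KO germ-like cells, a second 22.5% and 7.96%, and another 16.03% and 26.6%. Cwc22 was lower in KO in each of the 7 germ-like, 3 granulosa-like, 3 theca-like and 2 epithelia-like clusters, at log2 ratios from -1.64 to -0.62.

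**Figure D1:**
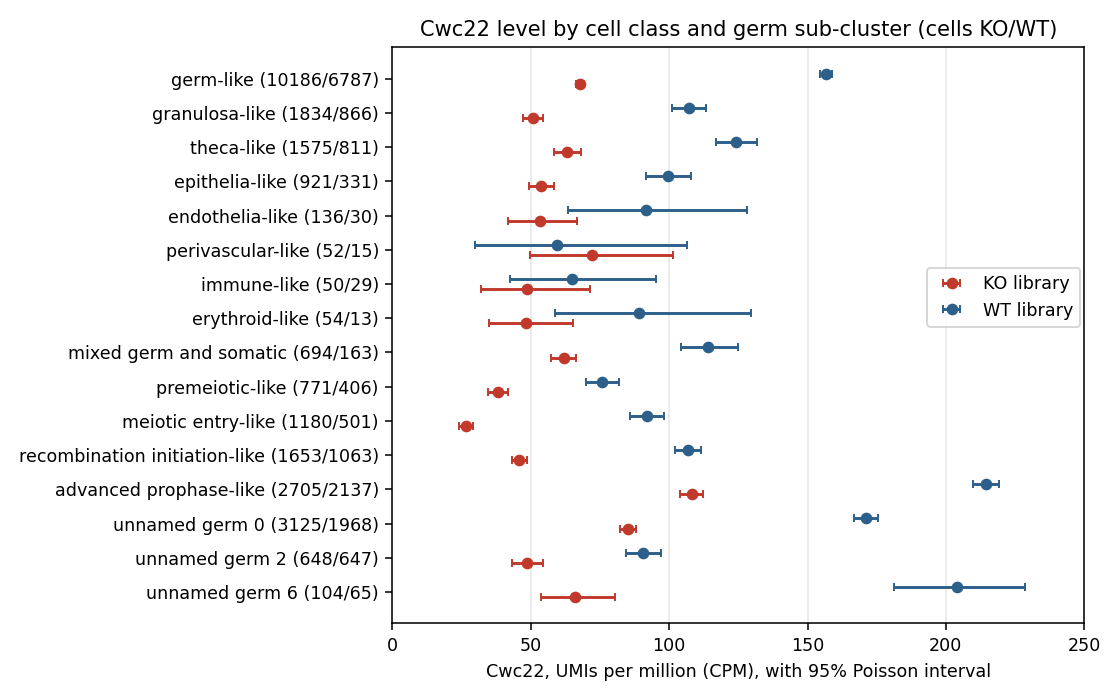
Cwc22 level in CPM (x axis) for each cell class and germ sub-cluster (y axis, with KO and WT cell numbers), as points with 95% Poisson intervals for the KO and WT libraries. The KO point lies left of the WT point in each row except perivascular-like, where the intervals of 49.7 to 101 and 29.7 to 107 CPM overlap.

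Germ-like cells of this age pass through meiotic prophase, and Cwc22 was highest in the most advanced cells of both libraries. Sub-clusters were named from stage markers. Premeiotic-like cells had the highest Sox2 and Rhox9, but also the highest Stra8, the meiotic gatekeeper, at 1401 CPM in KO and 1395 CPM in WT, and the highest Rec8, a meiotic cohesin. In meiotic entry-like cells Stra8 stood at 1170 CPM in KO and 1000.5 CPM in WT, so the order of these 2 stages is not settled by Stra8. Recombination initiation-like cells had the highest Prdm9 and Rad51ap2, but only 3 of the 8 markers of that stage passed for the name. Spo11, another of these markers, stood at 72.8 CPM in KO and 85.0 CPM in WT there. It was higher in advanced prophase-like cells, at 107 and 113 CPM. Advanced prophase-like cells had the highest Sohlh1 and Lhx8, regulators of oocyte growth. In advanced prophase-like cells Sohlh1 stood at 8.69 CPM in KO and 37.7 CPM in WT, and Lhx8 at 10.6 and 18.2 CPM. Their median UMIs per cell were 7700 in KO and 15844 in WT. Whether cells of this name were at the same stage in both libraries was not tested. The remaining 3 sub-clusters met no stage name. The smallest of them, sub-cluster 6, carried Xist at 564 CPM in KO and 691 CPM in WT, against at most 12.9 CPM in the other sub-clusters. Its leading genes also included Fst, a granulosa marker. Without cells that held markers of another class, 61 of its 104 KO and 44 of its 65 WT cells remained. Its Stra8 stood at 452 CPM in KO and 75.1 CPM in WT. Whether it holds germ cells mixed with somatic RNA was not tested.

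Premeiotic-like cells, 771 in KO and 406 in WT, had Cwc22 at 38.1 CPM (34.7 to 41.8) in KO and 75.7 CPM (70.0 to 81.8) in WT. At meiotic entry the level was 26.5 CPM (24.2 to 29.1) in KO and 91.9 CPM (86.0 to 98.1) in WT. In recombination initiation-like cells the level was 45.8 CPM (43.0 to 48.7) in KO and 107 CPM (102 to 112) in WT. In advanced prophase-like cells, 2705 KO and 2137 WT cells, it reached 108 CPM (104 to 112) in KO and 214 CPM (210 to 219) in WT. From premeiotic-like to advanced prophase-like cells the level was thus 2.84 times higher in KO (log2 1.504, 1.36 to 1.65) and 2.83 times higher in WT (log2 1.501, 1.39 to 1.62).

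At meiotic entry the libraries went in opposite directions. From premeiotic-like to meiotic entry-like cells the KO level was lower, at a log2 ratio of -0.52 (-0.71 to -0.33), whereas the WT level was higher, at 0.28 (0.13 to 0.43). This rests on 1 clustering: the meiotic entry-like sub-cluster passed 3 markers of its own stage and 4 of another, and at resolution 1.0 no sub-cluster took the name, the one led by the same genes being named premeiotic-like. The unnamed sub-clusters 0, 2 and 6 stood at 85.0, 48.7 and 66.1 CPM in KO and at 171, 90.5 and 204 CPM in WT. In WT, sub-cluster 6 and the advanced prophase-like cells were neighbours in the order that did not differ beyond counting error, with a log2 ratio of 0.07 (-0.10 to 0.25).

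The premeiotic-like level was below that of granulosa-like cells in both libraries, at log2 ratios of -0.41 (-0.59 to -0.25) in KO and -0.50 (-0.64 to -0.36) in WT. The advanced prophase-like level was above it, at 1.09 (0.97 to 1.21) and 1.002 (0.91 to 1.09). Granulosa-like cells therefore lay between these stages in both libraries.

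The stage difference was large beside that of the reference genes. Of genes with at least 100 UMIs in the compared cells, 5.58% in KO and 7.56% in WT had a higher advanced to premeiotic ratio than Cwc22. Among 54 reference genes of the exon junction complex, nonsense-mediated decay, the spliceosome and related families, the median ratio was -0.05 in KO and -0.04 in WT on the log2 scale. The only reference gene above Cwc22 was Eif4a2, a translation initiation helicase related to Eif4a3, at 1.51 in KO, and its WT value was 1.32. Eif4a3 itself stood higher in advanced cells by a smaller ratio, 0.40 (0.31 to 0.49) in KO and 0.43 (0.33 to 0.54) in WT. Rbm8a stood lower in advanced cells, at -0.44 (-0.49 to -0.38) and -0.42 (-0.48 to -0.36), and Magoh was near level at 0.06 and -0.0082. Cwc27, a spliceosomal peptidyl-prolyl isomerase family protein, stood at 1.02 in KO and 1.07 in WT.

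Within sub-clusters Cwc22 was lower in KO in 7 of 7. The log2 KO to WT ratio was -0.99 (-1.17 to -0.81) in premeiotic-like, -1.79 (-1.96 to -1.63) in meiotic entry-like, -1.22 (-1.33 to -1.11) in recombination initiation-like and -0.99 (-1.05 to -0.92) in advanced prophase-like cells. The unnamed sub-clusters 0, 2 and 6 gave -1.01, -0.89 and -1.63. The meiotic entry-like ratio differed from the advanced prophase-like ratio by a log2 value of 0.80 (0.63 to 0.98). At resolution 1.0 the premeiotic-like ratio, which then takes in those cells, was -1.43, and the advanced prophase-like ratio was -1.45, so the order of the stage ratios depends on the clustering. Advanced prophase-like cells made up 26.6% of KO and 31.5% of WT germ-like cells. With the sub-clusters weighted alike in both libraries, the germ-like log2 ratio was -1.06, beside -1.21 without weighting. Such weighting does not match stage inside a sub-cluster, where markers such as Sohlh1 differed between the libraries.

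The core members of the exon junction complex lay near a ratio of 0. Eif4a3, the helicase that CWC22 binds, was at 128 CPM in KO and 117 CPM in WT germ-like cells, a log2 ratio of 0.13 (0.10 to 0.16). Magoh was at 151 and 157 CPM, a log2 ratio of -0.06 (-0.08 to -0.03), and Rbm8a, its partner, at 295 and 264 CPM, a log2 ratio of 0.16 (0.14 to 0.18). Magohb, the Magoh paralog, had a log2 ratio of 0.03 (-0.03 to 0.10) and Casc3 of 0.08 (0.03 to 0.12).

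None of the 5 core genes reached an absolute log2 ratio of 0.5 in germ-like cells or the 3 main somatic classes. The background shares of genes at or beyond that size, among genes with at least 100 UMIs, were 7.94% in germ-like cells, 3.88% in the granulosa-like class, 4.55% among theca-like cells and 3.65% among epithelia-like cells. Across all 55 reference genes, of which 55, 55, 55 and 54 could be measured, the count at or beyond 0.5 was 0 in each of the 4 classes. Their median log2 ratios were 0.00044, -0.01, -0.0021 and 0.04, beside -0.05, -0.02, -0.02 and 0.02 for all genes measured. The lists were the exon junction core and periphery, nonsense-mediated decay factors, components of the activated spliceosome, other MIF4G domain genes and the Eif4a paralogs. In germ-like cells the most distant were Eif4a2 at -0.33 and Sap18, a protein of the exon junction periphery, at 0.30. In granulosa-like cells the most distant was Ctif, a translation initiation factor with a MIF4G domain, at -0.46. In the rare classes, where few UMIs were counted, the largest core ratio was 1.28 for Magohb in perivascular-like cells. Eif4a3 at -0.58 and Rbm8a at 0.67 in the same cells also passed 0.5 in size. So did Magohb at 0.68 in endothelia-like and 0.51 in immune-like cells, and Rbm8a at 0.56 in erythroid-like cells. The intervals of Rbm8a, 0.046 to 1.33 in perivascular-like and 0.015 to 1.15 in erythroid-like cells, lay above 0. Those of Magohb and Eif4a3 included 0.

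Cwc22 stood far out in this distribution. Of 13786 genes measured in germ-like cells, 68 had a lower KO to WT ratio, and in granulosa-like cells 33 of 10565. In theca-like cells 58 of 9948 were lower, and in epithelia-like cells 13 of 9304. The rule for choosing the gene used these ratios, so its rank is a description.

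**Figure D2:**
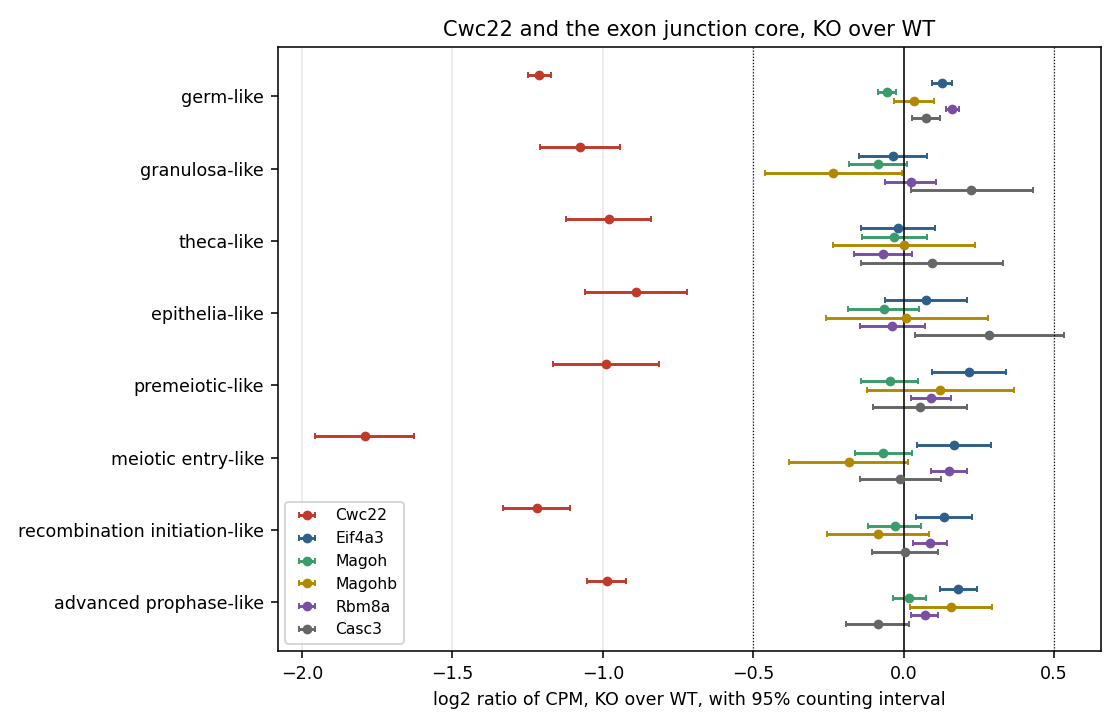
Log2 ratio of CPM, KO over WT (x axis), for Cwc22 and the 5 exon junction core genes in 4 cell classes and 4 germ stages (y axis), with 95% counting intervals; dotted lines mark a log2 ratio of 0.5 in either direction. Cwc22 lies between -1.79 and -0.89 in each row, and the points of the core genes lie within the dotted lines.

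The level of Cwc22 varied between cells of the same library beyond counting noise. When each cell was thinned to 3000 UMIs, which left out no cell, Cwc22 was present in 18.3% of KO and 33.0% of WT germ-like cells; without thinning the shares were 42.0% and 75.1%. No class is known to lack Cwc22; the erythroid-like cells, at medians of 17229 and 25671 UMIs before thinning against 11314 and 17100 in germ-like cells, had thinned shares of 11.1% and 23.1%. At that depth the mean was 0.235 UMIs per cell in KO and 0.482 in WT, and the Fano factor, the variance divided by the mean and equal to 1 for counting noise alone, was 1.34 (1.30 to 1.38) and 1.43 (1.38 to 1.47). Genes with a mean within 20% of that of Cwc22 had median Fano factors of 1.04 in KO and 1.07 in WT. Of them, 99.2% in KO and 98.3% in WT lay below Cwc22.

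At 10000 UMIs, which 6138 KO and 5867 WT germ-like cells reached, the Fano factors were 1.92 (1.85 to 1.99) and 2.49 (2.40 to 2.58). Cells without any Cwc22 UMI made up 65.1% in KO and 37.9% in WT, where a Poisson distribution of the same mean would give 54.8% and 21.4%. At the upper end 6.21% of KO and 22.004% of WT cells had at least 3 UMIs, against 2.33% and 20.2% under that distribution, and the highest cell had 9 and 18 UMIs. There were thus more cells without Cwc22 and more with several UMIs than counting noise gives.

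The spread was also present within germ stages. Within advanced prophase-like cells alone the Fano factor at 10000 UMIs was 2.21 (2.00 to 2.43) in KO and 2.65 (2.47 to 2.83) in WT. Granulosa-like cells gave 1.25 (1.08 to 1.43) in KO and 1.56 (1.40 to 1.72) in WT. The lowest value among germ stages was that of meiotic entry-like cells in KO, 1.12 (1.02 to 1.22), where Cwc22 itself was lowest, and at 3000 UMIs its interval there included 1 (1.02, 0.94 to 1.10).

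**Figure D3:**
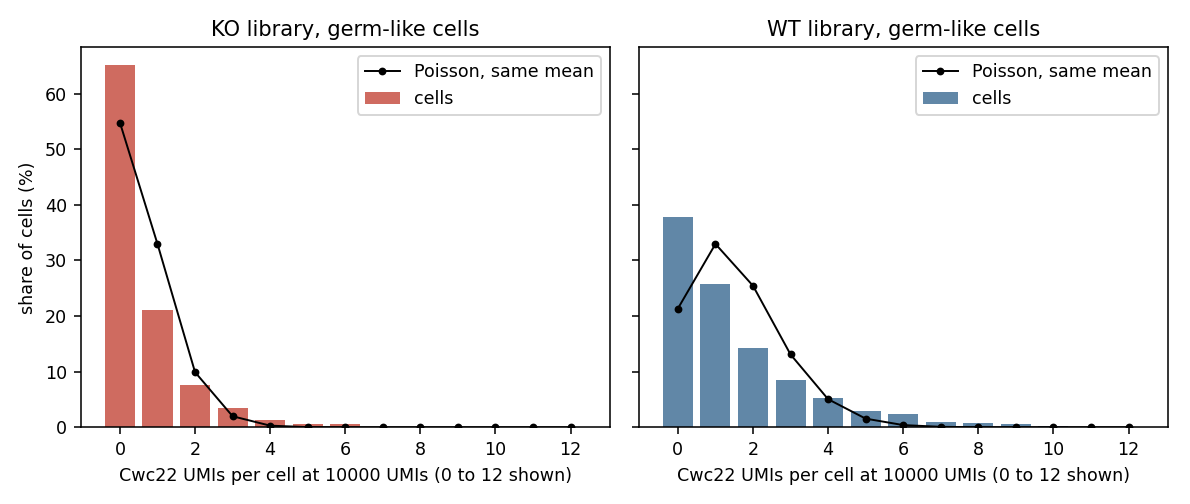
Share of germ-like cells (y axis, percent) with each number of Cwc22 UMIs (x axis) after thinning to 10000 UMIs, as bars for the KO and WT libraries, beside a Poisson distribution of the same mean as black points. Cells at 0 UMIs exceed the Poisson share, 65.1% against 54.8% in KO and 37.9% against 21.4% in WT.

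Genes that varied with Cwc22 between cells were sought after this spread had been seen. Within each library, Pearson correlations of log counts at 10000 UMIs were computed inside each of the 3 germ sub-clusters with at least 500 such cells per library, and averaged. Over 7739 genes in KO and 7840 in WT, the central 95% of the averages lay between -0.08 and 0.10, and between -0.08 and 0.11. Gm8797, annotated as a protein-coding gene on chromosome 3, had the lowest value in both libraries, at -0.44 in KO and -0.41 in WT, and it ranged from -0.49 to -0.36 over the 6 combinations of library and sub-cluster. Cep290, a ciliary and centrosomal gene on chromosome 10, was the second highest in both, at 0.29 and 0.28.

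Some other leading genes stood out in 1 library. Gm8730, a processed pseudogene on chromosome 8, was highest in KO at 0.34 and stood at -0.03 in WT. Rpl29, a ribosomal protein gene on chromosome 9, was highest in WT at 0.32 and at 0.0012 in KO, and the processed pseudogene Gm10709 of the same chromosome was second lowest in WT at -0.35 and at 0.0072 in KO. Rpl35a, second lowest in KO at -0.36, was negative in WT too, at -0.20. Pseudogenes and ribosomal protein genes can share reads with near-identical copies, so their counts are uncertain. The points of each correlation share a library, a sub-cluster and a depth.

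Gm8797 was itself unevenly spread, with a median of 3 UMIs per KO and 4 per WT germ-like cell at 10000 UMIs. It was at 0 in 18.4% of KO and 14.2% of WT cells, where a Poisson distribution would give 2.78% and 1.05%. The 1128 KO germ-like cells without Gm8797 held a mean of 1.47 Cwc22 UMIs (1.40 to 1.54), the 709 with 1 Gm8797 UMI held 1.06 (0.99 to 1.14) and the 4301 with 2 or more held 0.299 (0.283 to 0.316). In WT the 835 cells without Gm8797 held 2.93 (2.81 to 3.04), the 619 with 1 UMI held 2.64 (2.52 to 2.78) and the 4413 with 2 or more held 1.13 (1.10 to 1.16). The fold between the ends was 4.90 in KO (log2 2.29, 2.19 to 2.40) and 2.59 in WT (log2 1.38, 1.30 to 1.45), beside a log2 difference of -1.36 between the libraries over all germ-like cells at that depth. Gm8797 was chosen by its correlation with Cwc22 in germ-like cells of these libraries, so these folds are a description. The intervals cover counting error only, and Cwc22 spread beyond it within these groups of cells, at Fano factors of 1.40 to 2.22.

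The same order held in cells that the choice of Gm8797 had not used. In the granulosa-like class 385 KO cells reached 10000 UMIs and 1449 did not, against 694 and 172 in WT, so the KO values come from its deepest cells. Theca-like cells, with 92 such KO cells, were too few to compare. Granulosa-like cells without Gm8797, 61 in KO and 86 in WT, held 1.13 Cwc22 UMIs (0.88 to 1.43) in KO and 2.00 (1.71 to 2.32) in WT. Those with 2 or more held 0.289 (0.230 to 0.360) and 0.931 (0.851 to 1.02). Epithelia-like cells without it held 1.01 (0.85 to 1.18) in KO and 1.64 (1.33 to 2.01) in WT, and those with 2 or more held 0.317 (0.261 to 0.382) and 0.823 (0.711 to 0.949). The correlation of Cwc22 with Gm8797 was -0.43 in KO and -0.34 in WT over granulosa-like cells, and -0.35 and -0.31 over epithelia-like cells.

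Cwc22 was lower in KO at each Gm8797 count, by different amounts. In germ-like cells the log2 KO to WT ratio was -0.997 (-1.09 to -0.91) in cells without Gm8797 and -1.91 (-2.004 to -1.83) in cells with 2 or more. KO cells without Gm8797 held more Cwc22 than WT cells with 2 or more, at a log2 ratio of 0.38 (0.30 to 0.46). Within advanced prophase-like cells the same log2 ratio was -0.00066 (-0.16 to 0.16).

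The targeted gene did not follow this split. Nr3c1 held 0.112 UMIs (0.093 to 0.133) in KO germ-like cells without Gm8797 and 0.115 (0.105 to 0.126) in those with 2 or more, against 0.739 (0.682 to 0.800) and 0.692 (0.668 to 0.717) in WT. Among the core genes, Magoh held 1.53 and 1.48 UMIs in the same KO cells, a log2 ratio of 0.05 (-0.03 to 0.13), and Casc3 0.620 and 0.640, a log2 ratio of -0.05 (-0.17 to 0.07). Eif4a3 was somewhat higher without Gm8797, at a log2 ratio of 0.27 (0.18 to 0.35) in KO and 0.22 (0.12 to 0.31) in WT, and Rbm8a was lower without Gm8797 in KO, at -0.27 (-0.33 to -0.21), with a WT value of -0.00061 (-0.07 to 0.07). Which embryo a cell came from is not labelled in either pool, and its part in the split was not tested.

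**Figure D4:**
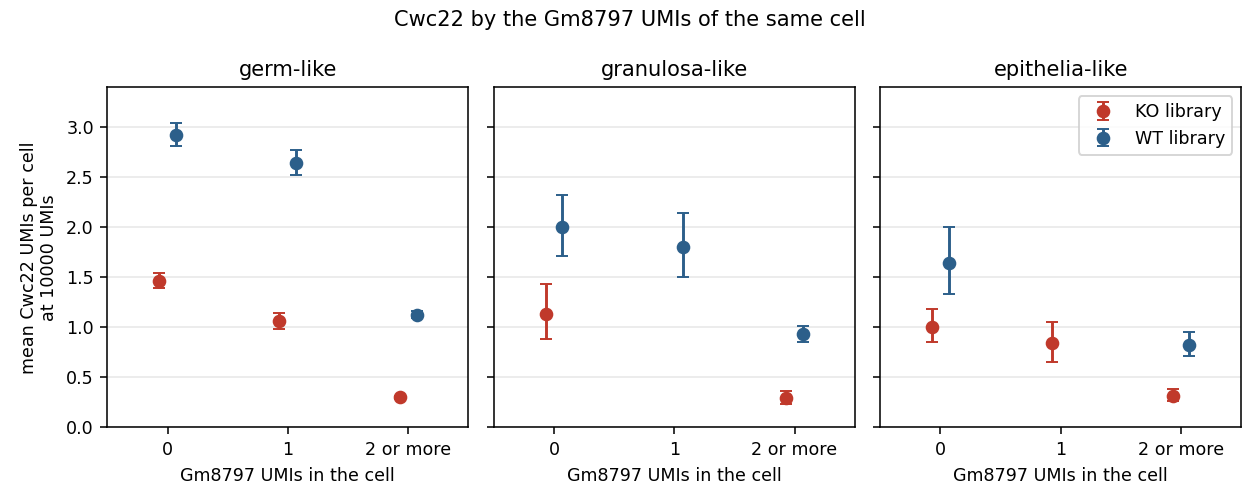
Mean Cwc22 UMIs per cell at 10000 UMIs (y axis) against the Gm8797 UMIs of the same cell (x axis), for germ-like, granulosa-like and epithelia-like cells of the KO and WT libraries, with 95% Poisson intervals; points from fewer than 50 cells are left out. Cwc22 falls from 1.47 to 0.299 in KO and from 2.93 to 1.13 in WT germ-like cells, and both somatic classes show the same order.

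Genes on chromosome 2 were measured around Cwc22 because its locus varies between strains. Of 149 annotated genes that start within 7 Mb, 71 had at least 100 UMIs in germ-like cells, and 6 of these were lower and 7 higher in KO by a log2 ratio of at least 0.5. That is 18.3% of the neighbours, beside 7.94% of all genes. In the 3 main somatic classes, granulosa-like first, then theca-like, then epithelia-like, the shares were 10.9%, 11.5% and 9.09%, beside 3.88%, 4.55% and 3.65%. In germ-like, granulosa-like and epithelia-like cells none of the neighbours was as low as Cwc22; in theca-like cells Itga6, an integrin subunit whose start lies at -6.14 Mb from that of Cwc22, was lower at -1.28, with 12.4 CPM in KO and 30.2 CPM in WT.

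The neighbours with the largest germ-like ratios were Pde1a, a calcium-dependent phosphodiesterase, at 1.20, Ube2l6, a conjugating enzyme for the ubiquitin-like protein ISG15, at 1.19, and Cyct, the germ cell cytochrome c, at 1.04. Cyct was at 59.3 CPM in KO and 28.8 CPM in WT. Wipf1, an actin regulator, followed at -0.88 and Metap1d, a mitochondrial methionine aminopeptidase, at 0.77. Pde1a, Ube2l6 and Wipf1 were at or below 1.70 CPM in both libraries.

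After their values were seen, 3 neighbours were singled out for passing a log2 ratio of 0.5 in all 4 classes. How many of all genes pass it in all 4 classes was not counted, so this number has no background beside it. Metap1d, at -6.43 Mb, was higher in KO at 0.77 in germ-like cells, 0.84 in the granulosa-like class, 0.88 among theca-like cells and 0.81 among epithelia-like cells. Nup35, a nuclear pore gene at 2.74 Mb, was higher in the same order at 0.57, 0.79, 0.87 and 0.74. Rbm45, an RNA-binding protein gene at -1.51 Mb, was lower at -0.75, -0.80, -0.68 and -0.57. By Gm8797 count, Rbm45 was higher without Gm8797 in KO, as Cwc22 was, at a log2 ratio of 0.77 (0.40 to 1.12), but in WT it was lower without Gm8797, at -1.20 (-1.67 to -0.76). The lower KO level of Rbm45 thus did not hold at each count. In germ-like cells its KO to WT log2 ratio was 0.64 (0.12 to 1.19) without Gm8797, from 95 KO and 45 WT UMIs. With 2 or more Gm8797 UMIs it was -1.32 (-1.56 to -1.09). Nup35 did not differ beyond counting error by Gm8797 count in either library, at -0.17 (-0.43 to 0.08) and -0.16 (-0.52 to 0.19). Metap1d was lower without Gm8797 in WT, at -0.45 (-0.75 to -0.16), with a KO value of -0.13 (-0.32 to 0.05).

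**Figure D5:**
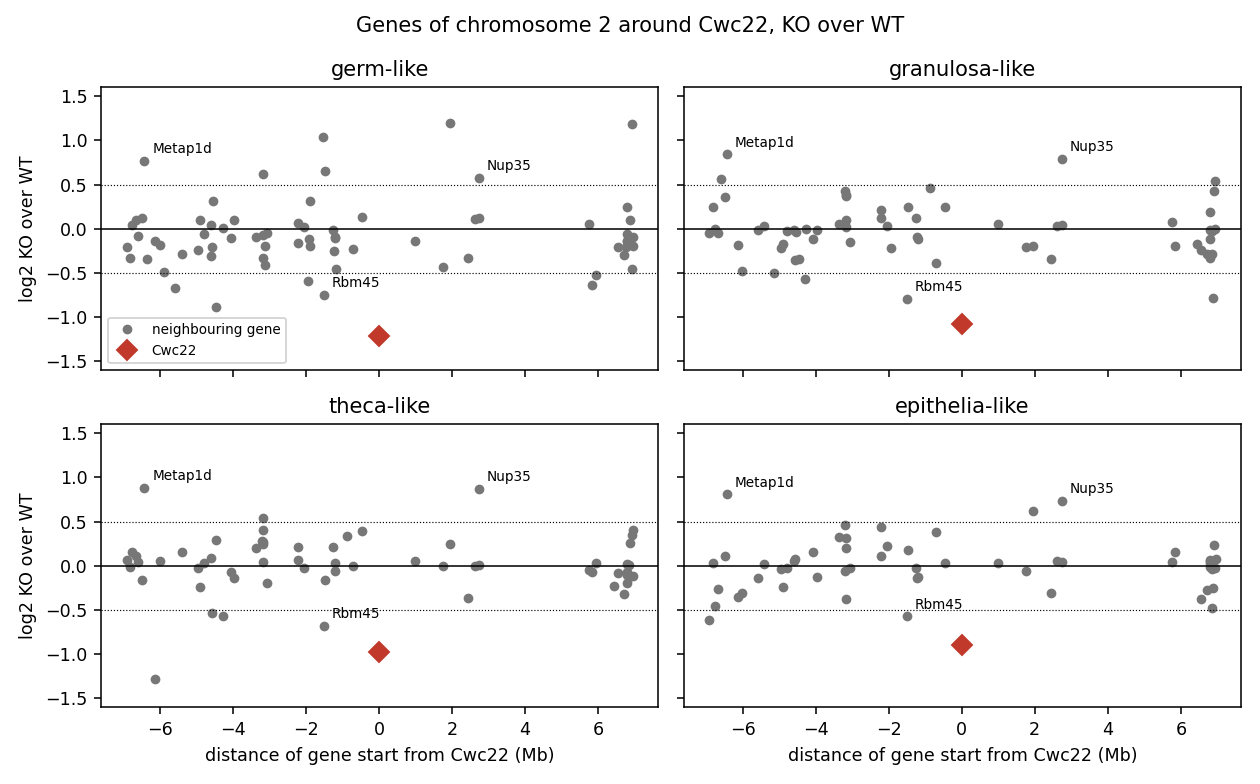
Log2 ratio of CPM, KO over WT (y axis), for genes of chromosome 2 against the distance of their start from that of Cwc22 in Mb (x axis) in 4 cell classes; dotted lines mark 0.5 in either direction. Cwc22, the red diamond, is lower than its neighbours except Itga6 at -1.28 in theca-like cells, and Metap1d, Rbm45 and Nup35 lie beyond a dotted line in each panel.

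The genes most like Cwc22 were sought over 12 points, the 6 classes with at least 20 cells in both libraries. Across both libraries the highest Pearson correlations of log2(CPM + 1), among 12311 genes with at least 500 UMIs, were 0.93 for Gm10031, 0.88 for Gm4353, 0.85 for Wdr89, 0.81 for Gm11808 and 0.80 for Gtpbp10. After each library's mean was subtracted, which leaves the order of classes alone, they were 0.98 for Nespas, 0.97 for Tsr2, 0.97 for Arhgap35, 0.97 for Anapc5 and 0.96 for Senp6. The points share 2 libraries, and 6 classes leave room for many genes to look alike.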

How the data were processed

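The deposited count matrices hold whole-number UMI counts per gene and cell, which the authors made with Cell Ranger (3.0.2 per the file headers); the submitters' processing notes name mm10 and Seurat 3.2.3. Single-cell 3′ v3 RNA was measured in 1 KO and 1 WT library, so no test between groups was possible. The gene, its comparisons and all gene lists were chosen with earlier results of these data known.

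Cells were kept by the study's limits, 1200 to 5500 genes and 3000 to 30000 UMIs in KO, 1500 to 6500 genes and 5500 to 40000 UMIs in WT, and below 10% mitochondrial UMIs. With scanpy 1.11.5 they were clustered on 2000 variable genes and 30 components (20 neighbors, resolution 0.5), leaving out Cwc22, matching genes and Nr3c1, after regression on genes, UMIs, mitochondrial and ribosomal shares; germ sub-clusters were also regressed on library. A cluster took a class name from at least 3 detected markers, and germ sub-clusters took a stage name likewise; these naming rules were set after the clusters had been seen. Scrublet called 6.60% of KO and 2.60% of WT cells doublets, which were kept in the main values.

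CPM is the summed UMIs of a gene per 1000000 summed UMIs of the same cells. Levels have exact 95% Poisson intervals, and ratios exact intervals conditional on the total count; both cover counting error only. Differences of log2 ratios and Fano factors have normal-approximation intervals. Lists used genes with at least 100 UMIs over both libraries. Ratios and intervals were tested on simulated Poisson counts. Such counts hold no spread beyond counting noise, so the test says nothing of the intervals under the wider spread of Cwc22. Matches to Cwc22 transcripts (at least 90% identity over 200 bases) came from BLAST 2.17.0 and GENCODE M21; 3 further genes (Hdx, Gm7340, Gm9218) matched only a non-coding Cwc22 transcript over 239 to 241 bases. Named genes were Cwc22, its matches, the exon junction core, reference genes at or beyond a log2 ratio of 0.5, 5 neighbors with the largest ratios, 5 most correlated genes by each measure, and Nr3c1; any other gene was named after its values were seen. Annotation was found for 98.7% of gene IDs. Alternatives covered cell limits, thinning, doublets, scaling, clustering and gene minimums.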

Additional observations from a re-analysis of the deposited data

Results flagged for a closer look

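Among Cwc22 in each class and the 5 exon junction core genes in the 3 main somatic classes, KO to WT ratios of opposite sign to that in germ-like cells were found in 6 cases; the differences were not tested, since each genotype has 1 library. Cwc22 in perivascular-like cells had a log2 ratio of 0.28 (-0.74 to 1.41), beside -1.21 in germ-like cells. Eif4a3 stood at -0.035 in granulosa-like cells and -0.018 in the theca-like class, beside 0.13 in germ-like cells. Rbm8a stood at -0.069 among theca-like cells and -0.037 among epithelia-like cells, beside 0.16. Magohb stood at -0.23 (-0.46 to -0.01) in granulosa-like cells, beside 0.03. Apart from that of Magohb, these somatic intervals include 0.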

How the results depend on the processing

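No paired analysis was possible because each genotype has 1 library. Cwc22 kept its lower KO level in germ-like cells and the 3 main somatic classes under every alternative run, at log2 ratios from -1.91 to -0.71. Among planned settings, the ratios that left the 95% counting interval of the reported value were, in germ-like cells, -1.03 after thinning to 3000 UMIs, -1.17 with median-of-ratios scaling and -1.09 as a mean over cells, and in theca-like cells -0.77 after thinning to 3000 UMIs. At a shared make-up of sub-clusters the ratio was -1.13 with shared cell limits and -0.98 after thinning. Chosen after seeing the data, thinning to 10000 UMIs gave -1.36 in germ-like and -1.23 in granulosa-like cells. Split by Gm8797 at that depth, cells at 0 and at 2 or more gave -0.997 and -1.91 in germ-like, -0.82 and -1.69 in granulosa-like, and -0.71 and -1.38 in epithelia-like cells. Cells of another depth or another Gm8797 count enter these values, and the cause of the shifts was not tested. In rare classes the sign turned after thinning to 3000 UMIs, to 0.042 in endothelia-like and -0.79 in perivascular-like cells, and to -0.15 in perivascular-like cells without cells holding other markers; too few UMIs remain there to give a direction.

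The advanced to premeiotic ratio was 1.69 in KO after thinning to 3000 UMIs, and at resolution 1.0 it was 1.69 in KO and 1.71 in WT. At that resolution the KO to WT ratio was -1.43 in premeiotic-like and -1.45 in advanced prophase-like cells, against -0.99 in both, and no sub-cluster was named meiotic entry-like. The Fano factor moved to 1.92 (KO) and 2.49 (WT) at 10000 UMIs. Within sub-clusters at 3000 UMIs the KO values were 1.20 in premeiotic-like, 1.02 in meiotic entry-like, 1.11 in recombination initiation-like and 1.39 in advanced prophase-like cells, and 1.30, 1.10 and 1.17 in unnamed sub-clusters 0, 2 and 6. The WT values that moved were 1.16, 1.26 and 1.18 in premeiotic-like, meiotic entry-like and recombination initiation-like cells and 1.33 in sub-cluster 2. With at least 20 UMIs per gene, the neighbors at or beyond 0.5 numbered 21 in germ-like cells, against 13 at 100 UMIs, 13 against 7 in the theca-like class and 8 against 5 among epithelia-like cells. Counts over all genes rose at that minimum too. The share of neighbors was not computed there, so the rise is not a result about the neighbors. In epithelia-like cells 1 reference gene passed after thinning to 3000 UMIs. Counts over all genes depended on the minimum, with 1094 in germ-like cells at 100 UMIs, 2255 at 20 UMIs and 4244 without a minimum, and 588 after thinning to 3000 UMIs. In granulosa-like cells 410 became 1380 and 3490 under the lower minimums, in the theca-like class 453 became 1471 and 3448 (288 after thinning), and among epithelia-like cells 340 became 1387 and 3403. Summing Cwc22 with its 7 copies could not change any ratio, because the copies had 0 UMIs. That setting therefore does not check for reads of copies. None of the intervals covers the spread between embryos.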
